A study of Homo sapiens with 18 samples.

Results

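The sites described here are 1646 U-tracts that stand in the submitters' HCS table and not in their PARCLIP-MeRIP table. They were chosen by list membership alone. HCS entries were collapsed to distinct U-tracts by chromosome, strand, start and end, which gave 2748 U-tracts, and those with no identical U-tract among the 13378 of the PARCLIP-MeRIP table were kept. They are called HCS-only sites below. The other 1102 HCS U-tracts stand in both tables and serve as the comparison, and the 2 tables together hold 15024 U-tracts.

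The study used HEK293T, a human embryonic kidney cell line that is easily transfected, and its 18 samples form 9 groups of 2. PAR-CLIP, in which a protein is crosslinked to RNA that carries a photoreactive nucleoside and is then pulled down, was done with an hnRNP C antibody in 6 samples. These were 2 of wild type cells (Control), 2 with METTL3 knockdown and 2 with METTL14 knockdown. The PARCLIP-MeRIP samples, 2 input and 2 IP, add an enrichment for methylated RNA, and 8 RNA-seq samples cover control, HNRNPC, METTL3 and METTL14 knockdown. Nothing in the labels ties replicates to separate cultures or says how the knockdowns were made.

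hnRNP C is an abundant nuclear protein that holds unspliced RNA through runs of uridines. METTL3 and METTL14 form the core of the enzyme that writes N6-methyladenosine (m6A) in the RRACH motif, where R is A or G and H is A, C or U. Methylation of a motif beside a U-tract can loosen the local RNA fold and open the tract to hnRNP C, an arrangement known as an m6A switch.

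The design of the series assigns the measurement of hnRNP C occupancy after METTL3 and METTL14 knockdown to PAR-CLIP. The tables themselves give positions, U-tract lengths, distances and, for HCS, exon or intron, with no value per sample. Whether occupancy at any HCS-only site fell after either knockdown, or how deep each knockdown was, could therefore not be checked, and the link between the HCS table and the knockdown libraries rests on the design. Read depth behind each site is unknown. The PARCLIP-MeRIP table may be incomplete as used here, and a missing entry whose U-tract is also an HCS site would turn a site of both tables into an HCS-only site. Its part in the results was not tested. Intervals are at 95%, cover counting error only and treat sites as independent, which sites of the same gene or motif are not.

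The layout of an HCS entry can be seen in MIR3658, a microRNA gene whose precursor holds an HCS U-tract at chr1:165877205-165877209 on hg19. This U-tract is in both tables and is shown only for the layout. Its hairpin, from RefSeq (GRCh38.p14) and printed 5′ to 3′, has the RRACH motif and the U-tract in capitals.
MIR3658 hairpin: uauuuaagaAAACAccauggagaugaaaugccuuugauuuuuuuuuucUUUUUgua
The motif occupies bases 10 to 14 of 56 and lies upstream of the U-tract at bases 49 to 53, with a gap of 34 nt between them.

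The HCS-only sites were spread thinly over many genes. They lay in 1275 of the 4470 genes named in either table (28.5%), and 987 of these genes held 1 such site. A further 205 genes held 2, 59 held 3 and 24 held 4 or more. In 321 genes HCS-only sites stood beside HCS sites of both tables. In 674 genes the PARCLIP-MeRIP table listed other U-tracts but none that was also an HCS site. The remaining 280 genes had no row in the PARCLIP-MeRIP table at all. Genes without such a row enter the 4470 only through the HCS table, and 280 of these 281 held an HCS-only site. Their outcome was thus nearly fixed by the way of counting, here and in the gene list shares below.

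UBE3C and POLA1 held the most, with 6 HCS-only sites each. UBE3C, a ubiquitin ligase of the HECT family that works at the proteasome, had all 6 in introns, on chromosome 7 (plus strand). They ran from 156955399 to 157048021 (hg19), with U-tracts of 5 or 6 nt and gaps to the motif of 3 to 27 nt. The first pair, at 156955399 to 156955403 and 156955410 to 156955414, shared a single motif. POLA1, which encodes the DNA-synthesizing subunit of polymerase alpha, lies on the X chromosome and had 5 intronic sites and 1 exonic site. The exonic U-tract, at 24751895 to 24751899, lay 3 nt downstream of its motif, and an intronic tract of 9 nt at 24752742 to 24752750 also lay 3 nt downstream of its own. In POLA1 the PARCLIP-MeRIP table listed 28 U-tracts, of which 2 were HCS sites, and in UBE3C it listed 19, of which 1 was.

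A further 6 genes held 5 HCS-only sites each, and all 30 of these sites were intronic. They were PTBP2 (the neuronal paralog of the polypyrimidine tract-binding splicing repressor), ATXN2 (an RNA-binding protein of cytoplasmic granules), NAA15 (the ribosome-anchoring subunit of an N-terminal acetyltransferase), SFMBT2 (a polycomb group protein), ANKRD17 and the noncoding LOC647946. PTBP2 had the most HCS sites in both tables of these genes, with 4. NAA15 and LOC647946 held 16 and 10 PARCLIP-MeRIP U-tracts, yet none of these was an HCS site. In PTBP2 the HCS-only U-tracts lay 413 to 1703 nt from the nearest PARCLIP-MeRIP U-tract on the same strand. In ATXN2 these distances ran from 2125 to 61766 nt.

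**Figure D1:**
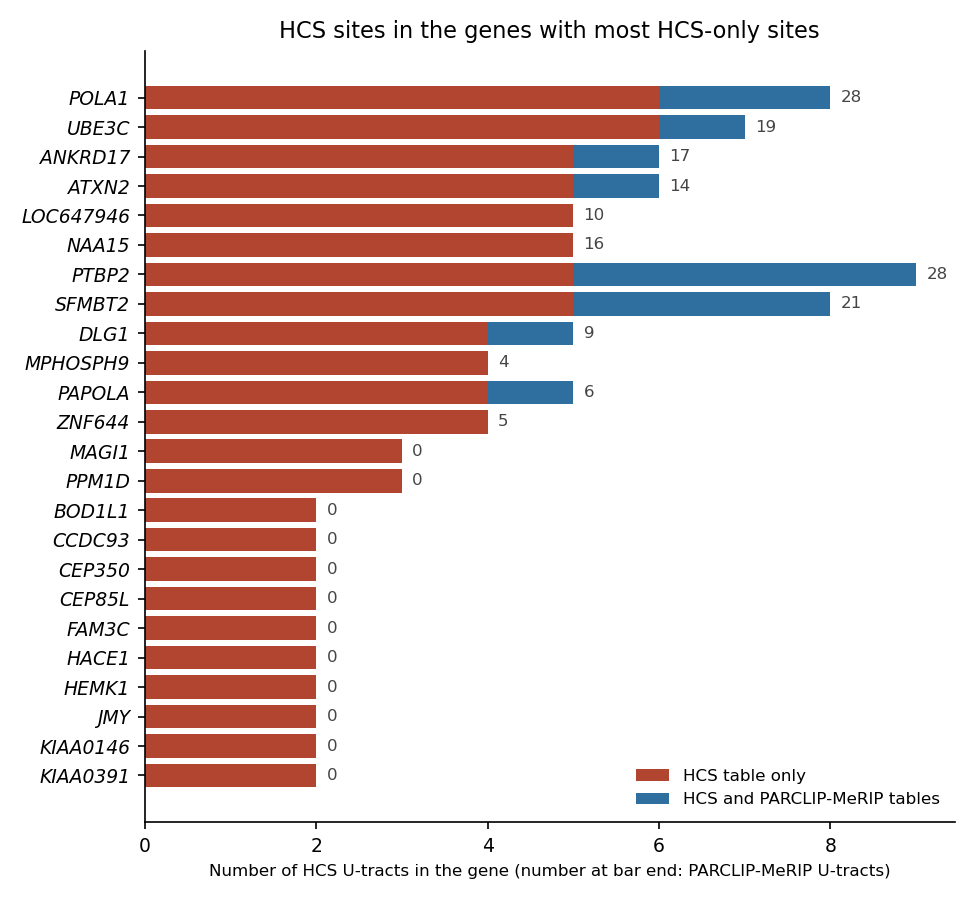
Number of HCS U-tracts (x axis) in the 12 genes with the most HCS-only sites and the 12 with the most among genes without a PARCLIP-MeRIP row; red bars count HCS-only sites, blue bars HCS sites in both tables, and the number at each bar end counts PARCLIP-MeRIP U-tracts. UBE3C and POLA1 lead with 6 HCS-only sites, and PTBP2 has the longest blue bar, with 4.

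Of 23 genes of the m6A pathway in either table, 8 held an HCS-only site (34.8%, exact binomial interval 16.4% to 57.3%), a share whose interval includes the 28.5% of all genes. YTHDF2, a cytoplasmic reader that sends methylated RNA to decay, held 3, all intronic, on chromosome 1 at 29064685 to 29064689, 29067135 to 29067139 and 29076804 to 29076810. None of its 10 PARCLIP-MeRIP U-tracts was an HCS site, although the last HCS-only tract lay 66 nt from one of them. YTHDF3, its paralog, held 2 HCS-only sites, both intronic, and 1 PARCLIP-MeRIP U-tract. ZC3H13, a subunit that keeps the writer complex in the nucleus, held 2 HCS-only sites with gaps of 4 and 7 nt, and EIF3A, a translation initiation factor subunit, held 2 with gaps of 23 and 24 nt.

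METTL3, METTL14 and WTAP held no HCS-only site. METTL14 had 2 HCS sites, both also in the PARCLIP-MeRIP table. METTL3 had 3 PARCLIP-MeRIP U-tracts and WTAP, which recruits the enzyme to RNA, had 10, with 0 HCS sites in each. HNRNPC had 2 HCS-only sites in an intron, on chromosome 14 (minus strand), from 21718906 to 21718910 and from 21718922 to 21718926. Both were paired with the motif at 21718926 to 21718930, and the latter overlapped it by 1 nt. MALAT1, a nuclear noncoding RNA, had 0 HCS-only sites and 3 in both tables.

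Other gene lists, drawn up with earlier results of these data known, are given by their counts beside the 28.5% of all genes. Chromatin modifiers and remodellers held HCS-only sites in 34 of 72 genes (47.2%, interval 35.3% to 59.4%), with 68 sites of which 4 were exonic. After SFMBT2 came SMARCC1 (a core subunit of the SWI/SNF remodeller) and BRWD1 (a bromodomain protein), with 4 each, then, by the rule for named genes, CHD6 with 3. Ubiquitin ligases and deubiquitinases held them in 30 of 68 genes (44.1%, interval 32.1% to 56.7%). By the same rule UBE4B, USP10 and BIRC6 followed UBE3C there with 3 each. The median gene of the chromatin and ubiquitin lists held 4 and 3 PARCLIP-MeRIP U-tracts, against 2 over all genes. Of all genes with 2 to 5 such U-tracts, 23.7% held an HCS-only site, a share below both intervals. The share was 48.5% in genes with 6 to 20, which is inside both intervals, and 78.6% in genes with over 20. Both lists hold genes with many such U-tracts, such as SFMBT2 with 21 and UBE3C with 19. The part of the number of PARCLIP-MeRIP U-tracts, gene length and transcript abundance in these counts was not tested.

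The 3 lists of RNA-binding and splicing proteins had intervals that overlapped each other and included 28.5%. The hnRNP and poly-pyrimidine or poly(C) binding list held HCS-only sites in 10 of 26 genes (38.5%, interval 20.2% to 59.4%), with MATR3, a nuclear matrix RNA-binding protein, at 4 sites and PCBP2, a poly(C)-binding protein, at 3. SR and SR-related factors held them in 14 of 39 genes (35.9%, interval 21.2% to 52.8%). SRPK1, the kinase that phosphorylates SR proteins, had 3 HCS-only sites. Exons held the U-tracts from 35802277 to 35802281 and from 35802283 to 35802288 (chromosome 6, minus strand), which share a motif, and none of its 22 PARCLIP-MeRIP U-tracts was an HCS site. Core spliceosome genes held HCS-only sites in 6 of 39 (15.4%, interval 5.86% to 30.5%), and 3 of their 8 sites were exonic. These 3 lay in PRPF4B, U2AF1 and SNRPB2, which encode a spliceosomal kinase, the small subunit of the factor that reads the 3′ splice site, and a U2 particle protein.

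Cytosolic ribosomal protein genes held HCS-only sites in 4 of 42 (9.52%, interval 2.66% to 22.6%), below the share over all genes. The median gene of this list held 1 PARCLIP-MeRIP U-tract, and of all genes with exactly 1 such U-tract 13.3% held an HCS-only site. The list was not limited to such genes, since RPS3 held 5 and RPL41 held 0. The part of this number in the low share was not tested. The HCS-only sites of the list lay in RPL4, RPL41, RPS3 and RPS7, with 1 each, and those of RPL41 and RPS7 were exonic. DNA replication and repair genes held them in 23 of 64 (35.9%), mitosis and cell cycle genes in 26 of 66 (39.4%) and nuclear or snoRNA-host noncoding RNAs in 3 of 15 (20%), with intervals that all included 28.5%. ZNF zinc finger genes held them in 39 of 121 (32.2%, interval 24.0% to 41.3%), and 16 of these 39 genes had no PARCLIP-MeRIP row. Those 16 enter the 121 only through the HCS table, and the share among ZNF genes with a row was not computed. The list of tissue-restricted genes of blood, liver, muscle, brain and other tissues had 0 genes in either table, and so could show nothing against the labelled cell line.

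**Figure D2:**
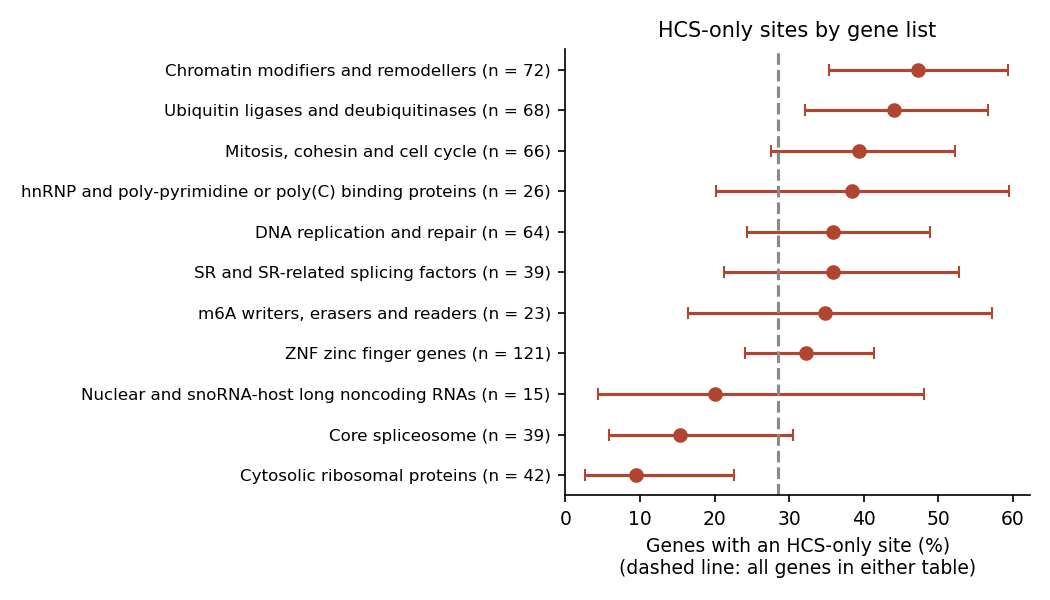
Share of genes named in either table that hold an HCS-only site (x axis, %), by gene list with its number of genes; points are shares, bars exact binomial 95% intervals and the dashed line all 4470 genes. Chromatin and ubiquitin genes lie to the right of the line with their whole interval, and ribosomal protein genes to the left.

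The HCS-only sites were mostly intronic. Of 1646, 196 were exonic (11.9%, exact interval 10.4% to 13.6%), against 271 of the 1102 sites in both tables (24.6%, interval 22.1% to 27.3%). The difference was -12.7 percentage points (Newcombe interval -15.7 to -9.73). Among sites within 30000 nt of the transcript start, a limit added after seeing the data, the shares were 12.1% and 20.3%, and the difference was smaller, at -8.15 points (interval -11.95 to -4.47). The 196 exonic HCS-only sites lay in 196 genes, counting every gene a site is listed under, and 4 genes held 2 of them, namely CREBZF, SRPK1, SPIN3 and PPM1D.

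How often HCS-only sites were exonic varied with the gene. In genes with no PARCLIP-MeRIP row 65 of 296 were exonic (22.0%, interval 17.4% to 27.1%), and in genes with 1 PARCLIP-MeRIP U-tract 44 of 243 were (18.1%, interval 13.5% to 23.5%). The share was 45 of 541 (8.32%) in genes with 2 to 5, 39 of 504 (7.74%) in genes with 6 to 20 and 3 of 62 (4.84%, interval 1.01% to 13.5%) in genes with over 20. The shares thus fall from bin to bin, but neighbouring bins have overlapping intervals except between 1 and 2 to 5. Over the same bins the sites in both tables went from 33.1% with 1 PARCLIP-MeRIP U-tract to 26.4%, 22.0% and 16.1%. The interval for 1 U-tract (24.9% to 42.1%) overlapped that for over 20 (8.02% to 27.7%), and the difference between these bins was not tested. In each of these 4 bins the share of the sites in both tables was above that of the HCS-only sites. The median start of HCS-only sites in the unspliced transcript moved with the bins, from 18520.5 nt with no row through 22535 nt, 22269 nt and 30647.5 nt to 46228.5 nt, and its part in the exonic share was not tested across the bins.

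**Figure D3:**
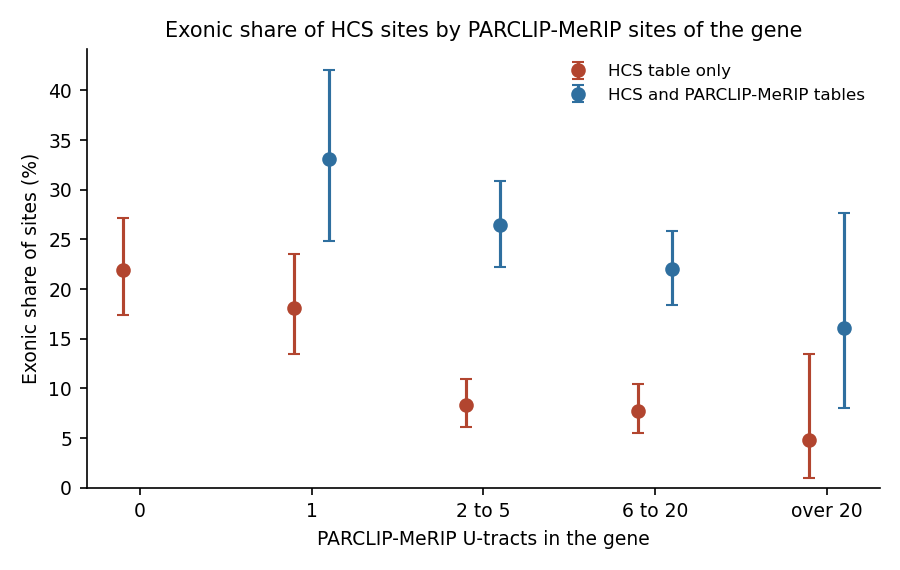
Exonic share of HCS sites (y axis, %) by the number of PARCLIP-MeRIP U-tracts in their gene (x axis), with red points for HCS-only sites, blue points for sites in both tables and bars for exact binomial 95% intervals. The red points go from 22.0% in genes without a row to 4.84% in genes with over 20. Genes without a row have no blue point, and in the other 4 bins the red point lies below the blue one.

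HCS-only sites listed only under genes with no PARCLIP-MeRIP row numbered 296 (18.0% of all, interval 16.2% to 19.9%). A site listed both under such a gene and under a gene with a row is not among the 296. Of the 280 genes with no row, 256 held just 1 HCS-only site. PPM1D, a phosphatase that switches off p53 signalling, and MAGI1, a scaffold protein of cell junctions, led with 3 each. In PPM1D, on chromosome 17 (plus strand), the U-tract from 58714503 to 58714507 was intronic, while those at 58740961 to 58740965 and 58740988 to 58740994 were exonic. The exonic pair flanks a single motif at 58740984 to 58740988, one tract ending 18 nt before it and the other overlapping it by 1 nt. The 3 sites of MAGI1 were intronic, and those at 65961268 to 65961272 and 65961276 to 65961280 (chromosome 3, minus strand) shared a motif.

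Among the 22 genes of this kind with 2 sites were JMY, HACE1, BOD1L1, CEP350, FAM3C and RB1. RB1, the tumour suppressor that holds cells out of S phase, had intronic U-tracts of 5 nt on chromosome 13 (plus strand), at 48919768 to 48919772 and 49009128 to 49009132. The former overlapped its motif by 1 nt and the latter lay 8 nt beyond its own. JMY, a coactivator of p53 that also nucleates actin, had 1 exonic site, at 78622513 to 78622517 on chromosome 5 (plus strand). HACE1, a HECT ubiquitin ligase, had a pair of tracts 10 and 16 nt from the same motif. FAM3C, a secreted cytokine-like protein, had the most isolated sites, 6949568 and 6950106 nt from the nearest PARCLIP-MeRIP U-tract on the same strand.

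The 65 exonic sites in genes without a row lay in 64 genes, and the genes named in the rest of this paragraph were chosen after their values were seen. G3BP1, a nucleator of stress granules, had a U-tract of 16 nt lying 3 nt downstream of its motif. MLL2, a histone H3 lysine methyltransferase, had a tract of 10 nt, and ZNF740 one of 11 nt. In HNRNPF, an hnRNP that binds runs of G, the U-tract of 5 nt overlapped its motif by 1 nt, and in SRSF6, an SR splicing factor, it ended 44 nt before the motif. The HCS-only tracts of the snoRNAs SNORD91B and SNORD102 began at bases 15 and 17 of their transcripts.

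Sites in genes without a row also lay closer to their motif. A gap of at most 10 nt was found in 57.1% of them, against 48.4% of HCS-only sites in genes with a row, a difference of 8.65 points (Newcombe interval 2.36 to 14.8). With a limit of 5 nt the difference was 4.08 points and its interval included 0 (-1.79 to 10.2). HCS-only sites in genes with 1 PARCLIP-MeRIP U-tract had a gap of at most 10 nt in 54.3%, with an interval (47.8% to 60.7%) that includes the 57.1%. The shares were 50.8%, 43.25% and 46.8% in genes with 2 to 5, 6 to 20 and over 20. Sites in both tables went from 54.8% with 1 U-tract through 50% and 42.5% to 37.1% over the same bins. The exonic share of sites in genes without a row exceeded that of HCS-only sites in genes with a row (131 of 1350, 9.70%) by 12.3 points (interval 7.60 to 17.5). Against the sites in both tables it differed by -2.63 points (interval -7.71 to 2.99). Within 30000 nt of the transcript start the shares were 23.7% (46 of 194) and 9.08% (67 of 738), and the difference of 14.6 points was as large as without the limit.

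On the chromosome, HCS-only sites seldom sat next to a PARCLIP-MeRIP U-tract. The nearest one on the same strand was a median of 7317.5 nt away (quartiles 1936.5 and 32362 nt). For 261 sites (15.9%) it lay within 1000 nt, and for 43 (2.61%) within 100 nt. In genes with a row the median was 4624.5 nt, and in genes without one it was 289931.5 nt, with 0 of 296 sites within 1000 nt (exact interval up to 1.24%) and a smallest distance of 2879 nt, in SNORD102. The split by rows itself keeps PARCLIP-MeRIP U-tracts out of the genes of the latter group. For the whole set, the rule itself left out U-tracts that coincide. Sites in both tables were not measured against their nearest other PARCLIP-MeRIP U-tract, so no background for these distances is given.

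**Figure D4:**
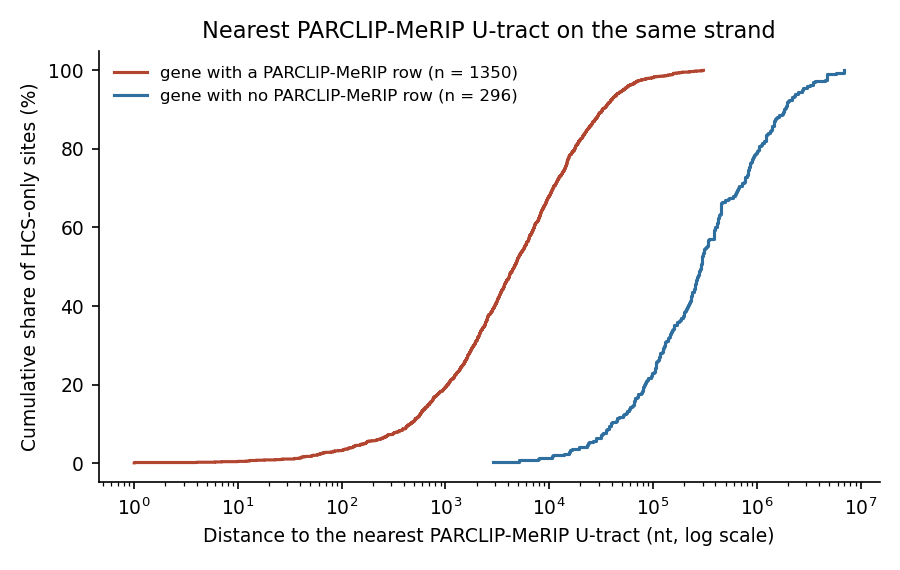
Cumulative share of HCS-only sites (y axis, %) by distance to the nearest PARCLIP-MeRIP U-tract on the same strand (x axis, nt, log scale), for 1350 sites in genes with a PARCLIP-MeRIP row (red) and 296 in genes without one (blue). The curves cross 50% at medians of 4624.5 nt and 289931.5 nt.

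The sites just outside a match show how the rule drew its line. In NAP1L4, a histone chaperone gene on chromosome 11, the HCS-only tracts at 2996233 to 2996238 and 2996240 to 2996244 lay 7 and 1 nt from a PARCLIP-MeRIP U-tract. In RNF138, a ubiquitin ligase gene on chromosome 18, the tract at 29704450 to 29704454 lay 1 nt from one. ZFP91 had a tract 4 nt away, and the exonic tract of NUCKS1, at 205684210 to 205684215 on chromosome 1, was 6 nt away. Motifs were compared with each U-tract standing only with its nearest listed motif, so matches through a farther motif were not counted. By this count 7 HCS-only sites used a motif that the PARCLIP-MeRIP table pairs with another U-tract, among them sites in C14orf118, ERCC1, MTMR1, TCTN2, U2SURP and USP9X. For all 1102 sites in both tables the nearest motif was the same in each. Near misses counted in this way were few beside the 1646 sites.

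In the gap between U-tract and motif, the HCS-only sites were nearer to the other HCS sites than to the rest of the PARCLIP-MeRIP table. Each U-tract was taken with its nearest listed motif. The median gap was 10.5 nt, against 12 nt for sites in both tables and 17 nt for PARCLIP-MeRIP sites outside the HCS table. A gap of at most 10 nt was found in 823 (50%, interval 47.6% to 52.4%), 46.5% and 33.4% of them. The difference from the last was 16.6 points (Newcombe interval 14.1 to 19.2), and that from the sites in both tables was 3.54 points (interval -0.273 to 7.33). Gaps of at most 5 nt made up 33.5% and 29.0%, and here the difference had an interval above 0 (4.44 points, interval 0.891 to 7.92). Gaps of at most 20 nt made up 71.2% and 70.4%, and the difference of 0.786 points had an interval that included 0 (-2.66 to 4.28).

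A downstream motif was listed for 55.5% of HCS-only sites and 56.7% of sites in both tables (difference -1.25 points, interval -5.02 to 2.54). PARCLIP-MeRIP sites outside the HCS table had 60% downstream. Those sites also piled up at single downstream gaps, with 369 (3.01%) at 40 nt and 245 (1.996%) at 48 nt. HCS-only sites had 14 (0.851%) and 6 (0.365%) at these gaps, differences of -2.16 points (interval -2.62 to -1.52) and -1.63 points (interval -1.96 to -1.14). The sites in both tables had low shares there too, 1.09% and 0.545%, and both differences of the HCS-only sites from them had intervals that included 0 (-0.238 points, interval -1.11 to 0.499, and -0.180 points, interval -0.848 to 0.340). The commonest downstream gap of HCS-only sites was 5 nt, with 57 sites (3.46%). In 61 HCS-only sites (3.71%) the U-tract and motif overlapped, and in 93 (5.65%) they touched. These shares were 4.17% and 6.62% for sites in both tables, and both differences from them had intervals that included 0. PARCLIP-MeRIP sites outside the HCS table had 2.21% and 3.13%.

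**Figure D5:**
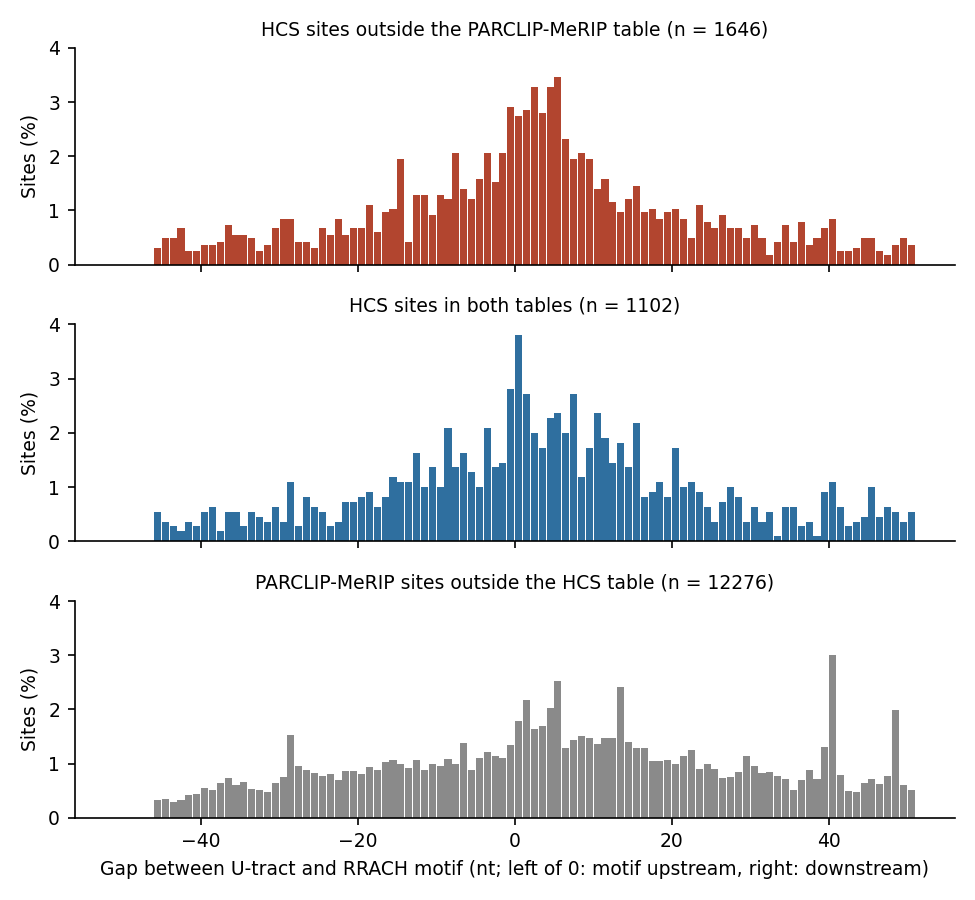
Share of sites (y axis, % of each class) by the gap between U-tract and motif (x axis, nt), with motifs upstream of the U-tract to the left of 0 and downstream to the right; overlapping pairs are not drawn. HCS-only sites (red) crowd near 0 and have 0.851% at 40 nt downstream, where PARCLIP-MeRIP sites outside the HCS table (grey) reach 3.01%.

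Tracts of 8 nt or more, a limit added after seeing the data, made up 118 of 1646 (7.17%) against 125 of 1102 in both tables (11.3%), a difference of -4.17 points (Newcombe interval -6.49 to -1.97). This did not hold in every kind of gene, since in genes with 2 to 5 PARCLIP-MeRIP U-tracts the shares were 9.06% (49 of 541) and 8.81% (37 of 420). Tracts of the minimum 5 nt made up 68.2% against 64.4% (difference 3.74 points, interval 0.141 to 7.36), a difference whose interval included 0 when 1 site was taken per gene (2.01 points) or 1 U-tract per motif (3.58 points). The 3 longest HCS-only tracts were all intronic. ANKRD13C had one of 23 nt on chromosome 1, and CHEK1, the checkpoint kinase that answers stalled replication, and PPFIA1, a scaffold protein, had one of 20 nt each on chromosome 11.

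Some HCS-only sites were close relatives of each other. Of 1646, 70 had another within 100 nt, and 62 shared their motif with at least 1 other, through 31 motifs, as in UBE3C, HNRNPC, PPM1D and MAGI1. HCS-only sites made up 50.6% (chromosome 22) to 68.5% (chromosome 14) of HCS sites by chromosome, and 59.2% and 60.6% on the plus and minus strands. Noncoding transcripts held 63 of them (3.83%), against 3.63% of the sites in both tables, a difference of 0.198 points (interval -1.32 to 1.61).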

How the data were processed

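The sources were 2 deposited tables of the whole series. Each entry, per the file headers, gives a U-tract, an RRACH motif, their positions, the tract length and their distance; the deposited values are lengths and positions in nt and the authors state no normalization. Trimmomatic, Bowtie 1.0.0 and hg19 are named per the submitters' processing notes; the sources used here give no site caller, threshold or pooling of replicates. No column held values per sample, so the planned results on hnRNP C occupancy and RNA abundance were not run.

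The 2798 and 17352 entries were collapsed to distinct U-tracts, and 3 Y chromosome copies of X chromosome sites were dropped. A U-tract listed with several motifs was kept with the motif at the shortest gap, which sets its gap and side. The part of this choice in the gap shares was not tested. The gap was recomputed from the positions: the listed distance equals it for downstream motifs and adds the 5 nt of the motif upstream. Missing or date-coded symbols were looked up by transcript in RefSeq (GRCh38.p14, names only), with 817 of 821 and 15 of 15 found. No genome of the files' build was used, so no sequence of an HCS-only site is shown.

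Shares have exact binomial intervals and differences Newcombe intervals at 95%, checked on simulated data. No test between samples or resampling was run. Sites, gene lists and comparisons were chosen with earlier results of these data known. Genes were named by a rule: the 12 with most HCS-only sites, the 12 with most among genes without a PARCLIP-MeRIP row, HNRNPC, METTL3, METTL14, WTAP, YTHDF2 and MALAT1, up to 4 per list, and those of the 5 sites nearest to a PARCLIP-MeRIP U-tract. Genes named for long tracts, transcript starts, shared motifs or paired exonic sites were chosen after their values were seen. Some genes are not reported here. The software was scipy 1.17.1, pandas 2.3.3, numpy 2.4.6 and matplotlib 3.10.9 under Python 3.11.15.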

Additional observations from a re-analysis of the deposited data

How the results depend on the processing

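No paired analysis was possible because neither table gives a value for any single sample, and leaving out replicates was not possible for the same reason. The number of HCS-only sites ran from 1603 to 1646 over 4 other definitions of a match. The exonic difference ran from -14.9 points (only genes with a PARCLIP-MeRIP U-tract) to -8.15 points (within 30000 nt of the transcript start), and that between genes without and with a row from 10.2 to 14.6 points, each with an interval that left out 0. The interval for gaps of at most 10 nt included 0 except with intronic sites only (4.38 points, added after seeing the data) and with a limit of 5 nt (4.44 points). The interval for tracts of 5 nt included 0 with 1 site per gene (2.01 points) and with 1 U-tract per motif (3.58 points). For these 4 the cause was not tested. The difference in tracts of 8 nt or more ran from -4.30 to -2.84 points with every interval below 0. Sites in genes without a row numbered 326 when symbols were taken as the tables give them, against 296. Depth is unknown and sets no limit that could be computed.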
